A study of Mus musculus with 30 samples.

Results

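Genes that mark fibroblasts, pericytes and myofibroblasts, the connective tissue and vessel wall cells of an organ, were followed in kidney and skeletal muscle of mice with a kidney tubule defect. They were the 10 listed genes Pdgfra, Thy1, Ly6a, Pi16, Dpt, Pdgfrb, Cspg4, Rgs5, Acta2 and Tagln, and every probe set annotated to 1 symbol only, and to one of these, was taken. Of the 10 genes 9 had such a probe set, 18 probe sets in all, among 17782 genes measured. Ly6a is not analysed here. The study compared mutants with wild-type animals aged 6 weeks, each given a ligand trap or PBS. The mutants, Kif3aΔTub, are labelled Kif3aKSPCre. In them the Ksp-cadherin promoter, which is active in kidney tubule epithelium, drives a Cre that removes Kif3a, a subunit of the kinesin-2 motor needed to build primary cilia. The trap was sActRIIB-Fc, a soluble activin receptor type IIB that binds activins and related ligands, given into the peritoneum at 10 mg/kg each week with 2 injections. Each tissue had 4 mutants given the trap, 4 mutants given PBS, 4 wild-type animals given the trap and 3 wild-type animals given PBS, so that 15 animals gave 30 arrays. The labels do not say which muscle was taken. Values are the authors' deposited log2 intensities, changes are differences of group means on that scale with the standard error of the limma fit. Called means an adjusted p (Benjamini-Hochberg, over every gene measured) under 0.05. Each gene stands for its brightest probe set unless another is named.

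Fibroblasts lay down and maintain the matrix of an organ. Pdgfra encodes the alpha receptor for platelet-derived growth factor and is a common marker of resting fibroblasts and, in muscle, of fibro-adipogenic progenitors. Thy1 is a surface glycoprotein of fibroblasts that mouse T cells and neurons also carry, Pi16 marks a fibroblast population found across organs, and Dpt encodes dermatopontin, a small matrix protein. Pericytes wrap capillaries and depend on Pdgfrb, the beta receptor, while Cspg4 encodes the surface proteoglycan NG2 and Rgs5 a regulator of G protein signalling, both marks of mural cells. Acta2 encodes smooth muscle alpha-actin and Tagln the actin-binding protein transgelin. Both belong to vascular smooth muscle at rest and are the usual marks of myofibroblasts, the contractile, matrix-producing cells of kidney scarring.

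Promoter windows of 6 of the 10 genes were searched, taken from the RefSeq table used (GRCm38.p6). Each spans 250 bases before and 50 bases after the annotated start. Pdgfrb was left out of this search, and Thy1, Tagln and Ly6a had no window in that table. The windows of Acta2 and Dpt are shown because these genes mark the ends of the pattern described below, Acta2 with a change in kidney and Dpt with a change in muscle. Capitals mark matches to the CArG box, the site of serum response factor in contractile genes, with at most 1 mismatch in its core, and to the MCAT element GGAATG, bound by TEAD factors. Both strands were searched, and no matches overlapped. The Acta2 window lies at chr19:34255324-34255623 on the minus strand and the Dpt window at chr1:164796413-164796712 on the plus strand.
Acta2: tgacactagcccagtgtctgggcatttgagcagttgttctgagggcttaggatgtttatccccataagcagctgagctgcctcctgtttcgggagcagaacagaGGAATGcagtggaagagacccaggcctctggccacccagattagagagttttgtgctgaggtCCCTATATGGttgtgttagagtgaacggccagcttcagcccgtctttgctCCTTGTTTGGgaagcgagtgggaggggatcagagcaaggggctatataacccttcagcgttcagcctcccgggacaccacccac
Dpt: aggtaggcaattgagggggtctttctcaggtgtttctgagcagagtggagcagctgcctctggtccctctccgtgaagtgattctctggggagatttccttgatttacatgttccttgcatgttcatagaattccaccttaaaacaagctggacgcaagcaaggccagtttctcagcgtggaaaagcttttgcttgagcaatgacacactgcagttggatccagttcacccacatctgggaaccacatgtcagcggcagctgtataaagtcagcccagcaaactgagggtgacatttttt
Acta2 held CArG matches from -84 to -75 and from -34 to -25 and an MCAT element from -146 to -141, counted from the annotated start. The windows of Dpt, Pdgfra, Cspg4, Pi16 and Rgs5 held none of these letters. Among 32851 windows of the same length, 9.98% held such a CArG match, 1.63% a CArG box without a mismatch and 14.7% an MCAT element.

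Array medians ran from 6.09 to 6.24 in kidney and from 5.94 to 6.06 in muscle, and arrays of a group correlated at 0.976 or more. The medians moved with genotype under PBS without overlap, at 6.19 to 6.22 in mutant and 6.09 to 6.13 in wild-type kidneys and at 5.94 to 6.00 in mutant and 6.02 to 6.03 in wild-type muscle. Median centring of the arrays changed no call of the 9 genes for genotype under PBS. Skeletal fibre genes averaged 4.19 to 4.61 on kidney arrays and 13.96 to 14.09 on muscle arrays. Proximal tubule genes averaged 8.57 to 12.24 on kidney arrays and 5.67 to 6.16 on muscle arrays. Kif3a lay at 7.22 to 7.48 in mutant kidneys and 7.76 to 7.89 in wild-type kidneys under PBS, without overlap. Under the trap it lay at 7.37 to 8.0 in mutant kidneys and 7.34 to 7.84 in wild-type kidneys, and the groups overlapped there and in muscle. The labels and tables used do not place its probe sets within or outside the deletion, and one outside says nothing of the deletion. The actin control of RNA integrity, taken as its 3 prime set less its 5 prime set, lay at 0.761 to 1.37 in mutant kidneys and 1.4 to 1.5 in wild-type kidneys under PBS. In muscle the ranges were -0.0611 to 0.141 for mutants and 0.159 to 0.182 for wild type. Under PBS it thus moved with genotype in both tissues. Under the trap the genotypes overlapped, at 0.606 to 1.64 in mutant and 1.38 to 1.6 in wild-type kidneys and at 0.0932 to 0.204 in mutant and 0.129 to 0.396 in wild-type muscle. The 18S ribosomal RNA control moved with treatment in kidney, at 12.0 to 12.7 in mutants and 12.4 to 12.8 in wild type under the trap, against 12.9 to 13.4 in mutants and 13.0 to 13.1 in wild type under PBS. In muscle under PBS it lay at 12.5 to 13.1 in mutants and 13.1 to 13.3 in wild type, and in treated mutants at 13.0 to 13.4. Each control was tried as a covariate for the effect of genotype under PBS, and their part in the other comparisons was not tested.

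In untreated wild-type animals most of these markers were dimmer in kidney than in muscle. The level was lower in kidney for 7 of the 9 measured genes, against 36.1% of all genes lower in kidney, with a median difference of -0.88 against -0.13 over all genes. Dpt averaged 5.93 ± 0.19 in kidney and 10.14 ± 0.07 in muscle (SD, n = 3 each), a difference of -4.22 ± 0.23 (adjusted p = 2.6e-15). Thy1 averaged 4.80 ± 0.14 in kidney and 8.34 ± 0.30 in muscle (-3.54 ± 0.27, adjusted p = 4.96e-12). These fibroblast markers thus stood furthest apart between the tissues. Skeletal fibre genes, which a kidney should lack, had a median of 4.70 in kidney, so Thy1 in wild-type kidney was near the low end of the signal there, and differences measured against it may be understated. Rgs5 differed by -2.45 ± 0.22 and Pi16 by -2.09 ± 0.20. The contractile genes were closer, with Acta2 at -0.88 ± 0.29 and Tagln at -0.79 ± 0.26. Both calls were lost without wild-type PBS replicate 2 (-0.72 and -0.61, adjusted p = 0.103 and 0.122). Pdgfra differed by -0.51 ± 0.22 (adjusted p = 0.0423), and this call was lost without any 1 of the 3 animals (-0.46 to -0.55, adjusted p = 0.0942 to 0.163) and without the animal as a block (adjusted p = 0.0553). Pdgfrb (-0.56 ± 0.27, adjusted p = 0.0745) and Cspg4 (-0.08 ± 0.16) were not called. Pdgfrb was called lower in kidney with the animal as a fixed block (adjusted p = 0.0393), after quantile normalization (-0.70, 0.0301) or median centring (-0.65, 0.035) and with array weights (-0.61, 0.0103). With the mean of probe sets Pi16 differed by -1.26, a mean that for Pi16, Pdgfra and Acta2 takes in 1 probe set near the low end of the signal. In bulk tissue, fewer cells of a type and less RNA per cell cannot be told apart.

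**Figure D1:**
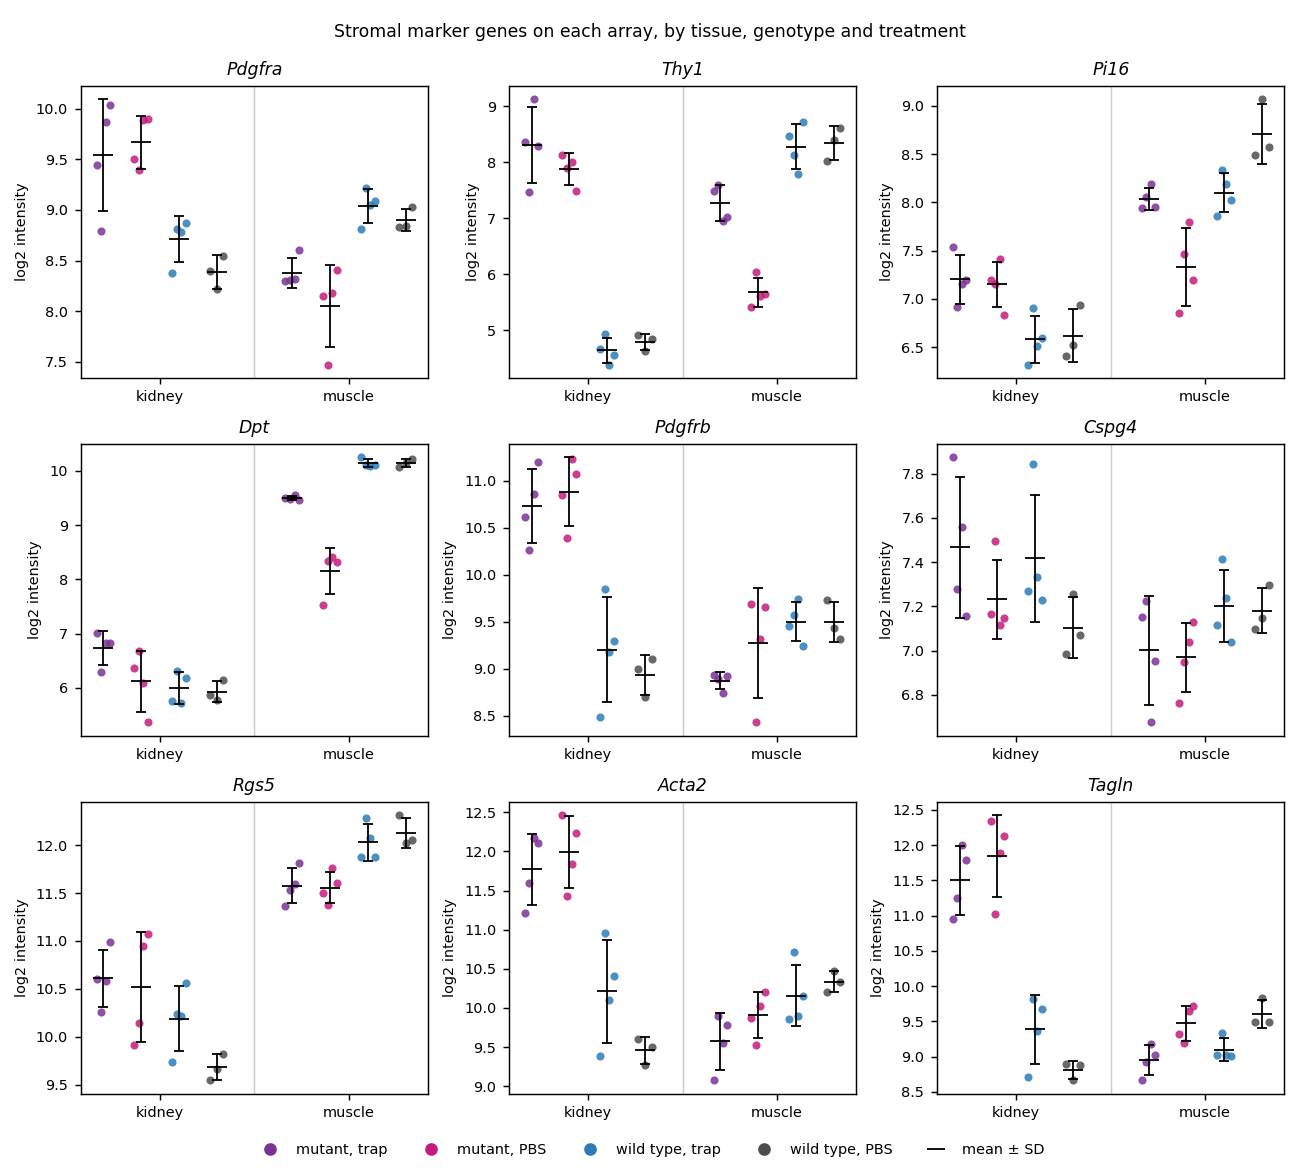
Log2 intensity of each of the 9 genes on every array (points), with group mean and SD (bars), for kidney at the left and muscle at the right of each panel. Thy1 sits between 7.48 and 8.14 in mutant kidneys under PBS and between 4.64 and 4.91 in wild-type kidneys, while in muscle it sits between 5.42 and 6.04 in mutants and between 8.02 and 8.61 in wild type.

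In mutant kidneys under PBS, Thy1, the contractile genes and the platelet-derived growth factor receptors were far above wild type. Of the 9 genes 7 rose and none fell, against 24.9% of all genes that rose, with a median of 1.28 against -0.08 over all genes. Thy1 read 8.14, 7.90, 8.01 and 7.48 in mutant kidneys, against 4.91, 4.64 and 4.84 in wild-type kidneys. Every mutant array lay above every wild-type array, and Thy1 rose by 3.08 ± 0.27 (adjusted p = 2.51e-07). Pdgfra read 9.50, 9.39, 9.89 and 9.89 in mutant kidneys, against 8.40, 8.22 and 8.55 in wild-type kidneys. These groups did not overlap either, and Pdgfra rose by 1.28 ± 0.24 (adjusted p = 0.000313). Pi16 read 7.19, 7.15, 7.41 and 6.84 in mutant kidneys, against 6.40, 6.52 and 6.93 in wild-type kidneys. One wild-type array lay above the lowest mutant array, and the rise was small (0.53 ± 0.18, adjusted p = 0.0202). The Pi16 call was lost without wild-type PBS replicate 1 (0.42, adjusted p = 0.0976), wild-type PBS replicate 2 (0.48, 0.0722) or mutant PBS replicate 3 (0.44, 0.0613), after quantile normalization (0.41, 0.0735) and with the mean of its probe sets (0.16, 0.218). Dpt, the marker brightest in muscle relative to kidney, read 6.36, 6.67, 6.09 and 5.36 in mutant kidneys, against 5.86, 5.77 and 6.14 in wild-type kidneys. The groups overlapped, and Dpt was not called (0.20 ± 0.25, adjusted p = 0.536).

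The mural cell markers did not move as 1 group in the kidney. Pdgfrb read 10.85, 10.39, 11.23 and 11.07 in mutant kidneys under PBS, against 9.00, 8.70 and 9.11 in wild-type kidneys. The groups were well apart, and Pdgfrb rose by 1.95 ± 0.28 (adjusted p = 2.83e-05). Rgs5 read 9.92, 10.14, 10.95 and 11.07 in mutant kidneys, against 9.55, 9.67 and 9.82 in wild-type kidneys. Its mutant arrays split into a pair near wild type and a pair more than 1 unit above it, and Rgs5 rose by 0.84 ± 0.26 (adjusted p = 0.0138). The Rgs5 call was lost without wild-type PBS replicate 1 (0.78, adjusted p = 0.0513) and with the actin control signal as a covariate (0.73, adjusted p = 0.0645). Cspg4 read 7.17, 7.50, 7.11 and 7.15 in mutant kidneys, against 6.98, 7.26 and 7.07 in wild-type kidneys. These groups overlapped and Cspg4 was not called (0.13 ± 0.17, adjusted p = 0.557).

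The contractile genes Acta2 and Tagln rose together in mutant kidneys under PBS. Acta2 read 12.46, 11.43, 11.83 and 12.24 in mutant kidneys, against 9.60, 9.27 and 9.51 in wild-type kidneys. Tagln read 12.34, 11.02, 11.89 and 12.13 in mutant kidneys, against 8.89, 8.66 and 8.88 in wild-type kidneys. Mutant replicate 2 was the lowest mutant array for both, and still lay well above every wild-type array. Acta2 rose by 2.53 ± 0.32 (adjusted p = 9.9e-06) and Tagln by 3.03 ± 0.32 (adjusted p = 1.27e-06).

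In mutant muscle under PBS the fibroblast markers were below wild type, and the contractile genes and Pdgfrb were not called. Of the 9 genes 5 fell and none rose, against 9.04% of all genes that fell, with a median of -0.57 against -0.05 over all genes. Thy1 read 5.42, 6.04, 5.62 and 5.65 in mutant muscle, against 8.02, 8.40 and 8.61 in wild-type muscle. The groups did not overlap, and Thy1 fell by 2.66 ± 0.22 on the log2 scale (adjusted p = 2.31e-06). Dpt read 7.52, 8.34, 8.42 and 8.31 in mutant muscle, against 10.07, 10.14 and 10.22 in wild-type muscle. The wild-type arrays were tightly grouped, mutant replicate 1 was lowest, and Dpt fell by 1.99 ± 0.16 (adjusted p = 1.86e-06). Pi16 read 6.85, 7.46, 7.80 and 7.19 in mutant muscle, against 8.49, 9.07 and 8.57 in wild-type muscle. The groups were apart, and Pi16 fell by 1.38 ± 0.19 (adjusted p = 0.000234). Pdgfra read 8.15, 7.47, 8.18 and 8.41 in mutant muscle, against 8.83, 8.84 and 9.02 in wild-type muscle. The groups again did not overlap, and Pdgfra fell by 0.85 ± 0.17 (adjusted p = 0.00379). Averaging its probe sets gave -0.40 and the 18S ribosomal RNA control as a covariate -1.28, both still called.

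Among the mural and contractile genes of muscle, Rgs5 alone was called. Rgs5 read 11.50, 11.37, 11.76 and 11.60 in mutant muscle under PBS, against 12.31, 12.02 and 12.05 in wild-type muscle. The groups did not overlap, and Rgs5 fell by 0.57 ± 0.14 (adjusted p = 0.00989). The call was lost without wild-type PBS replicate 1 (-0.48, adjusted p = 0.053). Pdgfrb ranged from 8.43 to 9.69 in mutant muscle and from 9.32 to 9.73 in wild-type muscle, with overlap (-0.22 ± 0.23, adjusted p = 0.583). Its lowest array, mutant replicate 2, was also the lowest for Pdgfra and Acta2. Acta2 was at -0.43 ± 0.22 (adjusted p = 0.213), Cspg4 at -0.21 ± 0.14 (adjusted p = 0.341) and Tagln at -0.13 ± 0.15 (adjusted p = 0.629).

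The effect of the mutation differed between kidney and muscle, which was tested directly by fitting both tissues together, arrays of 1 animal forming a random block. Kidney minus muscle, the effect under PBS was higher for 8 of the 9 genes, against 19.7% of all genes, with a median difference of 2.17. Thy1 had the widest gap (5.74 ± 0.36, adjusted p = 2.32e-12), with a rise in kidney and a fall in muscle. Tagln differed by 3.17 ± 0.35 and Acta2 by 2.96 ± 0.39, gaps made mostly by the kidney side. Dpt differed by 2.19 ± 0.31 (adjusted p = 1.52e-06), a gap made almost wholly by the fall in muscle. Pdgfrb differed by 2.17 ± 0.36, Pdgfra by 2.13 ± 0.29, Pi16 by 1.91 ± 0.26 and Rgs5 by 1.41 ± 0.29 (adjusted p = 0.000296 or lower). Cspg4 was not called (0.34 ± 0.22, adjusted p = 0.239). Its other probe set was called in the limma fit over all probe sets (0.75 ± 0.25, adjusted p = 0.0214). None of these 8 calls was lost under the alternatives run, which included leaving out each animal. With the mean of probe sets, however, the difference was 1.32 for Pdgfra and 1.04 for Pi16.

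**Figure D2:**
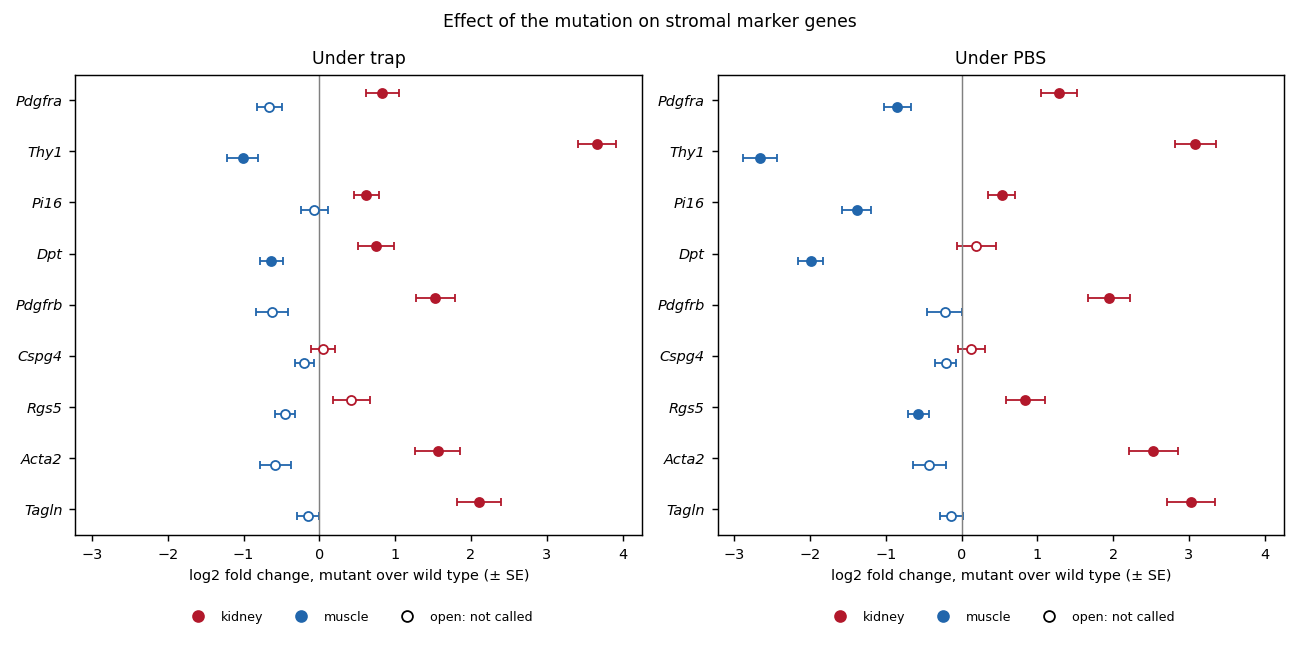
Log2 fold change of mutants over wild type (± SE) for each gene in kidney and muscle, under the trap (left panel) and under PBS (right panel), with filled points for called genes. Under PBS the 7 called kidney values lie between 0.53 and 3.08 and the 5 called muscle values between -2.66 and -0.57.

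Under the trap the kidney difference between the genotypes stayed wide. There 7 of the 9 genes were higher in mutants and none lower, against 22.2% of all genes that were higher, with a median of 0.83. Thy1 read 8.37, 7.46, 9.12 and 8.29 in mutant kidneys under the trap, against 4.67, 4.94, 4.39 and 4.57 in wild-type kidneys. The groups did not overlap (3.67 ± 0.25, adjusted p = 3.96e-08). Tagln was higher by 2.11 ± 0.29, Acta2 by 1.56 ± 0.30, Pdgfrb by 1.53 ± 0.26, Pdgfra by 0.83 ± 0.22 and Pi16 by 0.62 ± 0.16 (adjusted p = 0.006 or lower). These values are of the brightest probe set, and with the mean of probe sets Acta2 was higher by 0.96, Pdgfra by 0.41 and Pi16 by 0.30, all still called. Their other probe sets were not called under the trap, at 0.37 for Acta2, 0.32 and 0.07 for Pdgfra and -0.02 for Pi16, and of these only the Pdgfra set at 0.07 lay above the low end of the signal on every kidney array. Dpt, which was not called under PBS, read 7.02, 6.29, 6.83 and 6.83 in mutant kidneys under the trap, against 5.75, 6.30, 5.73 and 6.19 in wild-type kidneys. The lowest mutant array lay just below the highest wild-type array, and Dpt was higher by 0.75 ± 0.24 (adjusted p = 0.017), a call lost without wild-type trap replicate 3 (0.66, adjusted p = 0.0509). Rgs5 (0.42 ± 0.24, adjusted p = 0.163) and Cspg4 (0.05 ± 0.16) were not called. Another Rgs5 probe set was called in the limma fit over all probe sets (0.47 ± 0.17, adjusted p = 0.0412). The remaining Rgs5 sets, at 0.22 and 0.19, were not.

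Set directly against PBS, the trap called none of the 9 genes in kidney with limma, in either genotype. In mutant kidneys 2.40% of all genes were called, and 1 of the 9 genes, Dpt, had an unadjusted p under 0.05 (0.62 ± 0.24, adjusted p = 0.203). Over all genes 7.01% were higher at that level. In wild-type kidneys 0.877% of all genes were called, and 1 of the 9, Acta2, had an unadjusted p under 0.05 (0.75 ± 0.32, adjusted p = 0.328). There 6.57% of all genes were higher at that level. Acta2 read 11.21, 11.60, 12.17 and 12.11 in mutant kidneys under the trap, against 12.46, 11.43, 11.83 and 12.24 under PBS. In wild-type kidneys it read 9.38, 10.96, 10.10 and 10.41 under the trap, against 9.60, 9.27 and 9.51 under PBS. The groups overlapped in both genotypes. The interaction of genotype and trap called none of the 9 genes in kidney with limma (1.38% of all genes), and 2 had an unadjusted p under 0.05, Acta2 (-0.97 ± 0.44, adjusted p = 0.346) and Tagln (-0.92 ± 0.43, adjusted p = 0.365). Over all genes 7.12% had a negative interaction at that level. Treated mutant kidneys set against untreated wild-type kidneys were higher in 8 of the 9 genes, against 22.1% of all genes, with Thy1 at 3.51 ± 0.27, Tagln at 2.69 ± 0.32 and Acta2 at 2.31 ± 0.32. The smallest calls there were Dpt (0.81 ± 0.25), lost without wild-type PBS replicate 1 or 2 (0.78 and 0.74, adjusted p = 0.0505 and 0.0623), and Pi16 (0.58 ± 0.18), lost without the same arrays (0.48 and 0.53, adjusted p = 0.0711 and 0.0537) and with the mean of its probe sets (0.17, adjusted p = 0.192). The dimmer Pi16 set was called the other way there (-0.25 ± 0.09, adjusted p = 0.0342), but it read 4.28 to 4.83 over all kidney arrays, around the 4.70 of fibre genes, so its direction is not read as one of Pi16. With the mean of probe sets Pdgfra was at 0.77 in this comparison, against 1.15 for its brightest set, and Acta2 at 1.40.

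In muscle the trap raised the fibroblast markers Thy1, Dpt and Pi16 in mutants and lowered Tagln. Of the 9 genes 3 rose and 1 fell, against 4.18% of all genes that rose and 2.15% that fell. Thy1 read 7.48, 7.60, 6.96 and 7.03 in mutant muscle under the trap, against 5.42, 6.04, 5.62 and 5.65 under PBS. The groups did not overlap, and Thy1 rose by 1.58 ± 0.21 (adjusted p = 0.00079). Dpt read 9.50, 9.49, 9.56 and 9.46 in mutant muscle under the trap, against 7.52, 8.34, 8.42 and 8.31 under PBS. The treated arrays were nearly level with each other and above every PBS array (1.35 ± 0.15, adjusted p = 0.000346). Pi16 read 7.94, 8.05, 8.20 and 7.96 in mutant muscle under the trap, against 6.85, 7.46, 7.80 and 7.19 under PBS. The groups did not overlap (0.71 ± 0.18, adjusted p = 0.028), but the call was lost without mutant PBS replicate 1 or 4 or mutant trap replicate 2, 3 or 4 (0.55 to 0.74, adjusted p = 0.0565 to 0.0885), with array weights (0.46, 0.0919) and with a fit of these groups only (0.0807). Tagln read 8.67, 8.92, 9.18 and 9.03 in mutant muscle under the trap, against 9.32, 9.20, 9.65 and 9.72 under PBS. It fell by 0.52 ± 0.14 (adjusted p = 0.0402), a call lost without mutant trap replicate 1, 2 or 4 or mutant PBS replicate 1, 3 or 4 (-0.43 to -0.57, adjusted p = 0.0578 to 0.113) and with a fit of these groups only (0.113). Pdgfra (0.33 ± 0.16), Pdgfrb (-0.40 ± 0.21), Acta2 (-0.33 ± 0.20), Cspg4 (0.03 ± 0.13) and Rgs5 (0.02 ± 0.13) were not called. Pdgfrb was called lower without mutant PBS replicate 2 (-0.68, adjusted p = 0.00602).

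In wild-type muscle the trap called none of the 9 genes with limma, and 0.0619% of all genes were called. At an unadjusted p under 0.05 there were 2, Pi16 (-0.61 ± 0.19, adjusted p = 0.277) and Tagln (-0.51 ± 0.15, adjusted p = 0.257). Over all genes 5.58% were lower at that level. Thy1 read 8.46, 8.13, 7.80 and 8.72 in wild-type muscle under the trap, against 8.02, 8.40 and 8.61 under PBS. Dpt read 10.25, 10.11, 10.08 and 10.12 under the trap, against 10.07, 10.14 and 10.22 under PBS. The groups overlapped for both genes, with differences of -0.07 ± 0.22 and -0.01 ± 0.16.

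The effect of the trap in muscle differed between the genotypes for Dpt and Thy1. The interaction was higher for 2 of the 9 genes, against 0.152% of all genes. Dpt had an interaction of 1.36 ± 0.22 (adjusted p = 0.0196), and Thy1 one of 1.65 ± 0.30 (adjusted p = 0.0408). The Dpt call was lost without wild-type PBS replicate 2 or 3, wild-type trap replicate 3 or mutant trap replicate 3 or 4 (1.32 to 1.37, adjusted p = 0.0501 to 0.0699). The Thy1 call was lost without any 1 array except wild-type PBS replicate 1, wild-type trap replicate 4 and mutant PBS replicate 2 (1.49 to 1.75 where lost, adjusted p = 0.0504 to 0.121). Pi16 was just short of the threshold (1.32 ± 0.26, adjusted p = 0.0516), with a treated wild-type group below PBS and a treated mutant group above it.

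Treated mutant muscle still lay below wild-type muscle for Thy1 and Dpt. Under the trap 2 of the 9 genes were lower in mutants, against 1.51% of all genes, with a median of -0.58. Thy1 was lower, at -1.01 ± 0.21 (adjusted p = 0.0205), and the groups did not overlap. That call was lost without wild-type trap replicate 1 or 4 or mutant trap replicate 3 or 4 (-0.86 to -0.95, adjusted p = 0.073 to 0.081). Dpt was lower, at -0.64 ± 0.15 (adjusted p = 0.0444), also without overlap, and its call was lost without any 1 of the 8 arrays (-0.60 to -0.66, adjusted p = 0.06 to 0.132) and after centring each array on its median (-0.59, 0.0577). Pdgfra was close to the threshold (-0.66 ± 0.16, adjusted p = 0.0506), and its arrays of 8.30, 8.31, 8.32 and 8.60 in treated mutants lay below 8.81, 9.21, 9.05 and 9.09 in treated wild type. Pi16 overlapped between the genotypes under the trap (-0.07 ± 0.18, adjusted p = 0.932). Against untreated wild-type muscle, treated mutant muscle was lower in 1 of the 9 genes, against 0.827% of all genes. That gene was Thy1 (-1.08 ± 0.22, adjusted p = 0.0283), a call lost without wild-type PBS replicate 2 or 3 or mutant trap replicate 3 or 4 (-0.94 to -1.05, adjusted p = 0.0804 to 0.15). All 9 differences were negative in this comparison, with a median of -0.64, and 8 genes, all except Cspg4, had an unadjusted p under 0.05, against 6.45% of all genes that were lower at that level. Apart from Thy1 these were not called, with Tagln (-0.66 ± 0.15, adjusted p = 0.0588), Rgs5 (-0.55 ± 0.14, adjusted p = 0.0715) and Dpt (-0.64 ± 0.16, adjusted p = 0.08) closest to the threshold.

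Between the tissues, the effect of the trap in mutants was called lower in kidney than in muscle for 1 of the 9 genes, against 3.50% of all genes. That gene was Thy1 (-1.15 ± 0.33, adjusted p = 0.0408), which rose with the trap in muscle and was not called in kidney (0.43 ± 0.25). The call was lost without the animal as a block (adjusted p = 0.0527) and with it as a fixed block (adjusted p = 0.092). It was also lost with array weights (-1.0, 0.0691) and without mutant trap replicate 1, 2 or 4 or mutant PBS replicate 1, 3 or 4 (-0.76 to -1.28, adjusted p = 0.0508 to 0.181). Pi16 (-0.66 ± 0.24, adjusted p = 0.113) and Dpt (-0.73 ± 0.28, adjusted p = 0.137) were not called, although Dpt was without mutant PBS replicate 4 (-1.04, 0.0224).

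**Figure D3:**
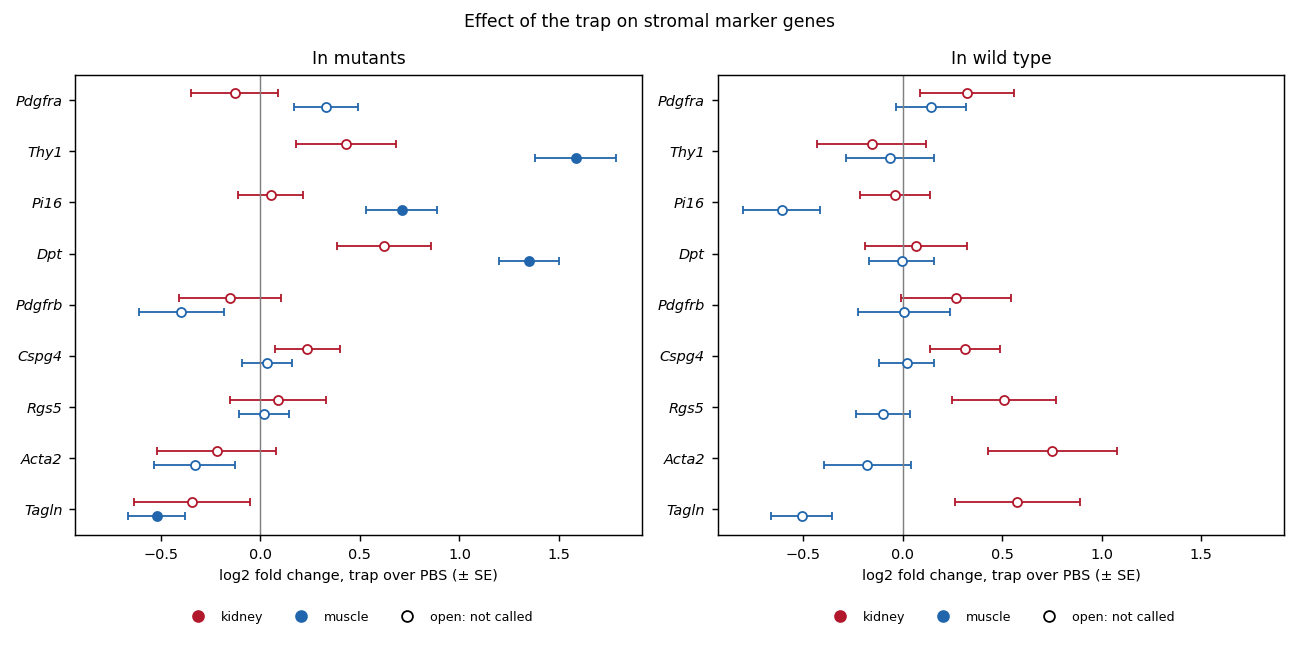
Log2 fold change of trap over PBS (± SE) for each gene in kidney and muscle, in mutants (left panel) and wild type (right panel), with filled points for called genes. The filled points are Thy1 (1.58), Dpt (1.35), Pi16 (0.71) and Tagln (-0.52), all in mutant muscle.

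Probe sets of a gene did not always give the same call, and 3 of the 18 were near the low end of the signal, judged by genes of the other tissue (medians of 4.70 for fibre genes in kidney and 5.20 for tubule genes in muscle). The dimmest Pdgfra set read 4.11 to 5.25 in kidney and 4.07 to 4.83 in muscle, the dimmer Pi16 set 4.28 to 4.83 in kidney and 4.55 to 5.30 in muscle, and the dimmer Acta2 set 4.07 to 6.71 in kidney and 4.45 to 5.28 in muscle. Changes of these sets may be understated, and the lack of one shows little. Over all 18 probe sets, 12 were higher in mutant kidneys under PBS, against 23.5% of all probe sets, and 9 were lower in mutant muscle, against 7.32%. The 12 take in the dim Pdgfra and Acta2 sets and the 9 the dimmer Pi16 set, all near the low end. Of the 3 Pdgfra probe sets the brightest (1.28) and the middle one (0.50) rose in kidney. The dimmest, near the low end of the signal, was called there at 1.0. In muscle the brightest fell (-0.85), the middle one was not called (-0.10) and the dimmest, at -0.25, could hardly show a fall. Both probe sets of Pdgfrb rose in kidney (1.95 and 1.32) and neither was called in muscle (-0.22 and -0.01). The dimmer Pi16 probe set was at -0.39 ± 0.12 in muscle and -0.22 ± 0.09 in kidney, where the brighter one rose by 0.53, and no direction is read from it at that signal. The mean of both was 0.16 in kidney and not called (adjusted p = 0.218), and -0.89 in muscle and called. Rgs5 had 4 probe sets, all between -0.65 and -0.55 in muscle with 3 called, and between 0.33 and 0.84 in kidney with 2 called. Cspg4 had 1 probe set that fell in muscle (-0.63 ± 0.20, adjusted p = 0.0421) beside 1 that was not called (-0.21 ± 0.14). The set that fell in muscle was also called higher in treated mutant than in untreated wild-type kidneys (0.44 ± 0.15, adjusted p = 0.0294). The Cspg4 set used for the gene was not called in that comparison (0.36 ± 0.17). Like an Rgs5 set called in muscle, the bright Acta2 probe set carries the suffix of sets that can match several transcripts. The dim one was at 1.11 ± 0.38 in kidney, with readings of 6.71, 4.37, 4.77 and 5.53 in mutants under PBS against 4.22, 4.07 and 4.41 in wild type, so that mutant replicate 1 stood far above the others and all wild-type readings were below 4.70. Thy1, Dpt and Tagln had 1 probe set each, so this comparison could not be made for them. In the limma fit adjusted over all probe sets, the Thy1 call for the interaction in muscle was lost (adjusted p = 0.0519). So was the Dpt call between treated genotypes in muscle (adjusted p = 0.057).

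**Figure D4:**
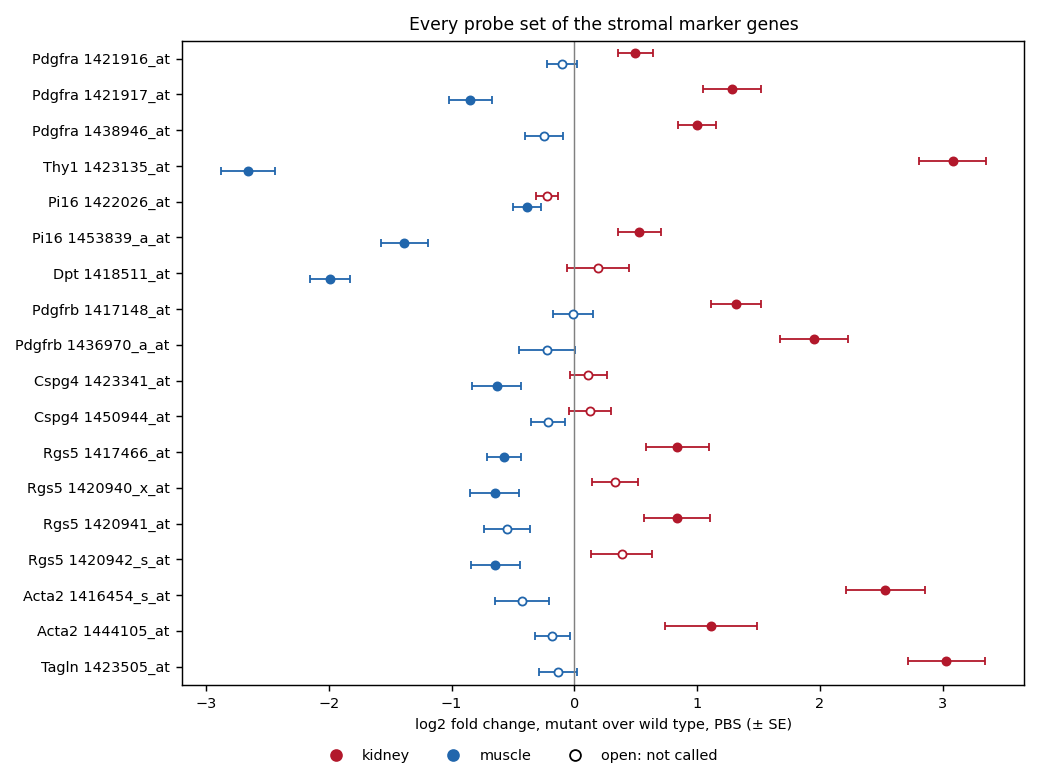
Log2 fold change of mutants over wild type under PBS (± SE) for each of the 18 probe sets in kidney and muscle, with filled points for called probe sets. The kidney values of the Acta2 sets are 2.53 and 1.11, and those of the Pi16 sets 0.53 and -0.22, the second value of each pair being that of a set near the low end of the signal.

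Other genes of the same cell types gave a like division between the tissues. These lists were chosen with earlier results of these data known and held none of the 9 genes, and those of their genes named below beyond the leading pair were picked after their values were seen. Over all genes 24.9% rose and 26.7% fell in mutant kidneys under PBS, and 6.93% rose and 9.04% fell in mutant muscle. Of 19 other fibroblast genes measured, 12 rose and 3 fell in mutant kidneys under PBS (median 1.03), led by Mfap5, a microfibril protein (2.87 ± 0.29), and Vim, the intermediate filament vimentin (2.81 ± 0.22). Those that fell in kidney were the peptidase gene Dpp4 (-0.98), the transcription factor gene Osr1 (-0.67) and Clec3b, tetranectin (-0.58). In mutant muscle 13 of the 19 fell and none rose (median -0.92), led by Serpinf1, a secreted serpin (-2.50 ± 0.15), and Lum, the collagen-binding proteoglycan lumican (-2.44 ± 0.33). Of 14 myofibroblast genes, 9 rose and none fell in kidney (median 2.17), led by Ccn2, a matricellular protein (3.48 ± 0.34), and Lox, the collagen cross-linking enzyme lysyl oxidase (3.25 ± 0.28). In muscle 5 of the 14 fell and none rose (median -0.21), led by the matrix protein gene Postn (-2.32 ± 0.63) and the cadherin gene Cdh11 (-1.85 ± 0.35), with Cthrc1 (-1.83), fibronectin, Fn1 (-1.56), and Meox1 (-0.72) after them. The contractile list rose in 11 of 15 and fell in 1 in kidney (median 0.83), led by the smooth muscle actin Actg2 (2.76 ± 0.44) and the actin cross-linker Flna (2.46 ± 0.23), and the gene that fell was Pln, phospholamban (-0.96). In muscle 3 of the 15 fell and none rose (median -0.03), led by Actg2 (-1.24 ± 0.21) and Cnn1, calponin (-0.80 ± 0.18), with Cald1 at -0.53. Some of its genes, such as Des and Tpm2, are also expressed by skeletal muscle fibres.

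The pericyte list was less uniform. In kidney 4 of its 15 genes rose, near the 24.9% of all genes, and 1 fell (median 0.16). Its largest changes were those of Anpep (-2.16 ± 0.27) and of the adhesion molecule gene Mcam (1.45 ± 0.19). Anpep encodes an aminopeptidase that is also abundant in the brush border of proximal tubules. In muscle 8 of the 15 fell, against 9.04% of all genes, and none rose (median -0.48), led by the vessel growth factor Angpt1 (-1.41 ± 0.24) and vitronectin, Vtn (-1.17 ± 0.28). The ligands of Pdgfra and Pdgfrb were called in kidney, with Pdgfd (1.39 ± 0.20), Pdgfa (1.12 ± 0.15) and Pdgfb (1.06 ± 0.17) higher and Pdgfc (-0.63 ± 0.13) lower in mutants. In muscle under PBS none of the 4 was called with limma, although Pdgfa (-0.24 ± 0.11) and Pdgfd (-0.44 ± 0.20) had an unadjusted p of 0.0473 and 0.0472. Over all genes 16.4% were lower there at an unadjusted p under 0.05. Pdgfb was at 0.12 ± 0.21 and Pdgfc at -0.09 ± 0.20.

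**Figure D5:**
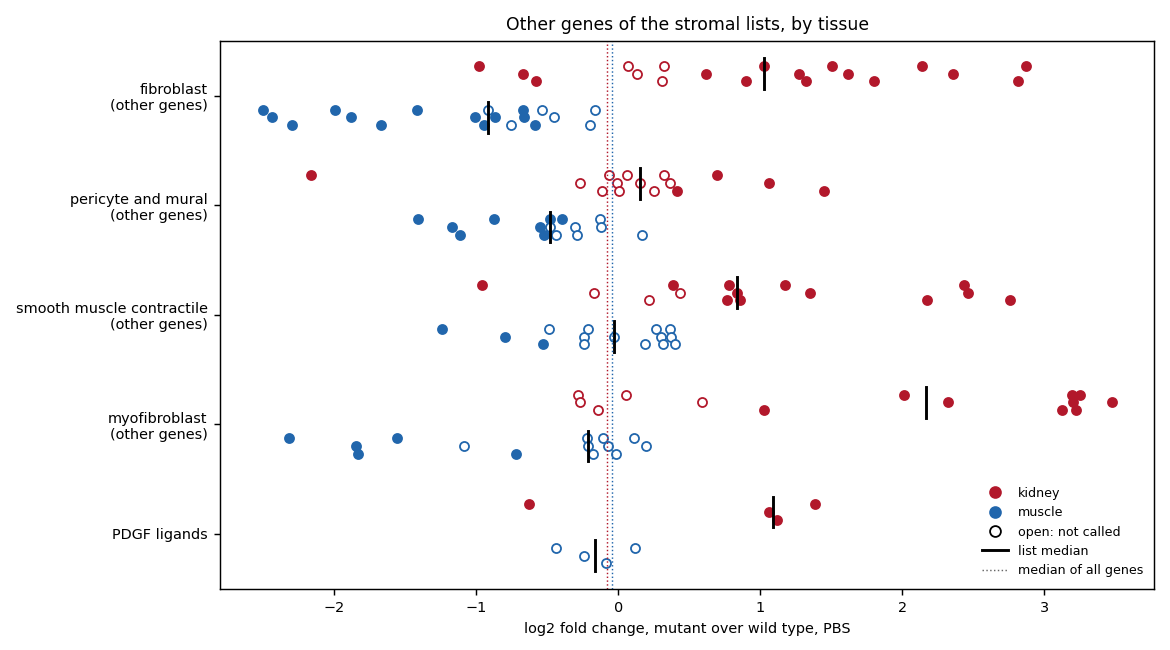
Log2 fold change of mutants over wild type under PBS for each other gene of the stromal lists in kidney and muscle, with filled points for called genes, a black bar at each list median and dotted lines at the median of all genes. The myofibroblast list has a median of 2.17 in kidney and -0.21 in muscle, and the fibroblast list 1.03 and -0.92.

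With the trap in mutant muscle, 9 of the 19 other fibroblast genes rose, against 4.18% of all genes, and none fell (median 0.76). Of 8 macrophage genes Adgre1 (0.76) and C1qa (0.74) rose in the same comparison and the others were not called (median 0.66), with an overlapping mean level of 7.91 to 8.36 under the trap and 7.03 to 8.33 under PBS. In wild-type muscle the trap called none of either list with limma, with medians of 0.69 for the macrophage and 0.04 for the fibroblast genes. At an unadjusted p under 0.05 there were 5 macrophage genes, Adgre1, Cd163, Cd68, Csf1r and Lyz2, and 2 fibroblast genes, S100a4 and Serpinf1. Over all genes 6.05% were higher and 5.58% lower at that level, so the 2 fibroblast genes were near the share of all genes. In the pericyte, contractile and myofibroblast lists the counts that rose were near the share of all genes. Of the pericyte list 1 of 15 rose (median 0.03), Angpt1 (1.24). Of the contractile list 1 of 15 rose, Actg2 (0.88), and 2 fell, Myh11 (-0.78) and Mylk (-0.60), against 2.15% of all genes that fell, with a median of -0.06. Of the myofibroblast list 1 of 14 rose (median 0.08), Meox1 (0.45). Pdgfd rose by 0.69 ± 0.19 (adjusted p = 0.039). Serpinf1 was the 1 fibroblast gene of this list with an interaction called in muscle (1.71, adjusted p = 0.0021). In mutant kidneys the trap called none of the 19 fibroblast genes with limma (median 0.08), and 3, Cd55, Fap and Lum, had an unadjusted p under 0.05. Over all genes 7.01% were higher and 7.94% lower at that level, so these 3 were near the share of all genes.

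Markers of some other cells also changed in the same comparisons. In mutant kidneys under PBS all 8 macrophage genes rose (median 3.61), with a mean log2 level over the list of 9.83 to 10.32 in mutants and 6.43 to 6.83 in wild type. All 6 proximal tubule genes fell (median -2.88), with levels of 8.57 to 10.16 in mutants and 12.10 to 12.15 in wild type. T cells carry Thy1 in mice, and of 7 T cell genes Cd3g rose (0.40) and Cd8a fell (-0.66) in kidney, with levels of 4.66 to 4.90 in mutants and 4.84 to 4.91 in wild type. Cd2 and Cd5 averaged 4.70 or less in every kidney group. Of 8 endothelial genes Cdh5 (0.89) and Cldn5 (0.53) rose, a share near the 24.9% of all genes. Of 3 measured genes of the mesangial and juxtaglomerular list other than Pdgfrb, Gata3 rose (2.63), Sfrp2 fell (-1.03) and Itga8 was not called (0.51) in kidney. Ren1 of that list was not among the genes measured. In mutant muscle under PBS 4 of 5 tendon cell genes, Kera, Tnmd, Mkx and Fmod, fell (median -1.25), although Mkx averaged 5.05 or less in every muscle group, below the 5.20 of tubule genes there, with levels of 6.04 to 6.45 in mutants and 8.33 to 8.74 in wild type. Under the trap their level was 6.86 to 7.16 in mutant muscle and 7.55 to 8.15 in wild-type muscle. Of 8 macrophage genes Adgre1 (-0.92), C1qa (-0.77) and Csf1r (-0.67) fell in mutant muscle, with levels of 7.03 to 8.33 in mutants and 7.81 to 8.17 in wild type. Of 8 endothelial genes Flt1 rose (0.85) and Cldn5 (-0.84) and Cdh5 (-0.61) fell in muscle. Sfrp2 (-1.83) and Itga8 (-0.76) fell in mutant muscle, as did the satellite cell genes Calcr (-0.73) and Chodl (-0.67), of 4, with Calcr averaging 4.56 or less in every muscle group. With the trap in mutant muscle Sfrp2 rose (1.62). The part of these cells in the changes of the 9 genes was not tested.

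Within a tissue the markers varied together to different degrees, described here over 15 arrays that share the groups above, with the genotypes apart for many genes. In kidney Acta2 and Tagln correlated at 0.986, Pdgfra and Pdgfrb at 0.952 and Pdgfrb and Tagln at 0.970. Cspg4 stood apart there, at 0.539 with Dpt and at 0.091 to 0.369 with the other genes. In muscle the fibroblast markers Thy1, Dpt, Pi16 and Pdgfra correlated with each other at 0.608, for Pdgfra and Pi16, to 0.959, for Thy1 and Dpt. With Acta2 they correlated at 0.302, for Dpt, to 0.637, for Pdgfra, and with Tagln at -0.217, for Thy1, to 0.156, for Pi16. Acta2 and Tagln correlated at 0.674 in muscle. The mural marker Rgs5 correlated with the 4 fibroblast markers of muscle at 0.624, for Thy1, to 0.844, for Pdgfra. In kidney Thy1 correlated at 0.883 with Acta2 and at 0.922 with Tagln.

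Genes whose pattern was most like that of each marker were taken over all 30 arrays after the tissue means were removed, by Pearson's r. For Thy1 they were Cmtm3 (0.966) and Mrc2, a collagen uptake receptor (0.964). For Pdgfra they were Gnb4 (0.950) and Pid1 (0.936), for Pi16 Islr (0.890) and Nrep (0.859), and for Dpt the proteoglycan gene Lum (0.935) and Gng11 (0.888). For Pdgfrb they were Cald1, caldesmon (0.943), and Tgfbi, a secreted matrix protein (0.943). Acta2 was most like Tagln (0.957) and Tgfbi (0.955), and Tagln most like Acta2 and Slc44a2 (0.957). Rgs5 was most like Stard9 (0.893) and Septin4 (0.852). The nearest genes to Cspg4 were further off, Tada3 (0.696) and Mmrn2 (0.693). The arrays share animals and groups, and the values describe these arrays only.

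Ranked over all 8 groups, the genes fell into different orders. Acta2, Tagln, Pdgfrb and Pdgfra were highest in mutant kidneys, given PBS or the trap. For Acta2 these groups averaged 11.77 ± 0.45 under the trap and 11.99 ± 0.46 under PBS (SD, n = 4 each), and the next group, untreated wild-type muscle, averaged 10.34 ± 0.13 and did not overlap with them. For Pdgfra the neighbours in the order all overlapped, with means from 8.05 ± 0.40 in untreated mutant muscle to 9.67 ± 0.26 in untreated mutant kidney. Dpt, Pi16 and Rgs5 were highest in wild-type muscle. Every muscle group was above every kidney group for Dpt and Rgs5, the closest being untreated mutant muscle at 8.15 ± 0.42 and treated mutant kidney at 6.74 ± 0.31 for Dpt. For Thy1, untreated wild-type muscle (8.34 ± 0.30), treated mutant kidney (8.31 ± 0.68), treated wild-type muscle (8.28 ± 0.40) and untreated mutant kidney (7.88 ± 0.28) overlapped with their neighbours. Below them came treated mutant muscle (7.27 ± 0.32), which overlapped with untreated mutant kidney, then untreated mutant muscle (5.68 ± 0.26), then wild-type kidney under PBS (4.80 ± 0.14) and under the trap (4.64 ± 0.23). Cspg4 spanned a narrow range, with means from 6.97 ± 0.16 to 7.47 ± 0.32, and each group overlapped with the next.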

How the data were processed

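RNA from snap-frozen kidney and muscle was extracted with QIAZOL and measured, per the labels' protocols, on the Affymetrix chip for mouse named 430 2.0. Its values here were the authors' deposited normalized log2 intensities, from 2.16 to 14.46. The range of the values gave the log base. How they were normalized is not stated in the sources used here. No scaling or filter on low values was added. Precision is limited by how many arrays there were. Signal near the low end has no zero, so changes there may be understated.

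Of 35088 probe sets, 31563 were annotated to 1 symbol, 825 to several and 2700 to none. Those with 1 symbol gave 17782 genes, each taken as its probe set with the highest mean in the tissue, or over all 30 arrays in fits of both tissues. Of the symbols 102 had no RefSeq match and were kept, and 0 changed. Groups came from the labels, and each array of a tissue was a separate animal by the number in its title.

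Each tissue was fitted with limma 3.58.1 in R 4.3.3 with 1 mean per group. Differences between tissues came from fitting both tissues together, 30 arrays, the animal being a random block (consensus correlation 0.0749). A call needed an adjusted p under 0.05, by Benjamini-Hochberg over every gene or every probe set. Replicate numbers count the arrays of a group in sample order and are not the animal numbers of the titles. Arrays of different groups with the same replicate number deviated together at -0.243 to 0.301 in muscle and -0.124 to 0.342 in kidney. Those with different numbers did so at -0.23 to 0.249 in muscle and -0.309 to 0.466 in kidney, so the replicate numbers showed no pairing. Tissues of the same animal deviated together at -0.09 to 0.306 (median 0.052). Tissues of different animals did so at -0.247 to 0.355 (median 0), so these ranges overlapped.

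The marker genes and the lists were chosen with earlier results of these data known. The genes named are the listed 10, the 2 called genes with the largest change of each stromal list for genotype under PBS in each tissue, the 4 PDGF ligands and the 2 genes most like each marker. Genes named as examples outside this rule were chosen after their values were seen. Alternatives tried were quantile normalization, median centring, averaging a gene's probe sets, genes above the median level only, weighting arrays, a prior variance with a trend, fitting the compared groups alone, a block for the replicate number or animal, and leaving out each array. In fits of both tissues each animal was left out with both of its arrays. The 18S and actin control signals as covariates were chosen after seeing the data. Promoter windows came from RefSeq (GRCm38.p6). Plots used Python 3.11.15 and matplotlib 3.10.9.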

Additional observations from a re-analysis of the deposited data

Results flagged for a closer look

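Some differences between tissues or genotypes were themselves past the threshold. Kidney minus muscle, the effect of the mutation under PBS differed by 5.74 for Thy1, 3.17 for Tagln, 2.96 for Acta2, 2.19 for Dpt, 2.17 for Pdgfrb, 2.13 for Pdgfra, 1.91 for Pi16 and 1.41 for Rgs5. The effect of the trap in mutants differed by -1.15 for Thy1 between kidney and muscle. In muscle the effect of the trap differed between mutants and wild type by 1.65 for Thy1 and 1.36 for Dpt.

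Single arrays stood apart from the rest of their group in 5 of the 54 gene and group combinations of 4 arrays, where chance gives about 1 in 20. Pdgfra read 8.60 in treated mutant muscle replicate 4, against 8.30 to 8.32 in the others. Dpt read 7.52 in mutant muscle replicate 1 under PBS, against 8.31 to 8.42. Tagln read 9.34 in treated wild-type muscle replicate 2, against 9.00 to 9.03. Cspg4 read 7.50 in mutant kidney replicate 2 under PBS, against 7.11 to 7.17, and 7.84 in treated wild-type kidney replicate 2, against 7.23 to 7.33.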

How the results depend on the processing

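There were 52 called effects of the 9 genes over 15 comparisons. Of these, 35 were called under every alternative that held the gene, and 17 were lost under at least 1. In kidney, Thy1 and Dpt were not in the fit of genes above the median level. None of the 52 reversed. Of the rest, 13 were called under an alternative and 70 never were, 25 of them with a change of sign in some setting. Those gained in muscle were Pdgfra and Pdgfrb between treated genotypes, Dpt, Tagln, Rgs5 and Pdgfrb between treated mutants and untreated wild type, Pi16 in the interaction and Pdgfrb for the trap in mutants. Those gained in kidney were Rgs5 between treated genotypes and Cspg4 between treated mutants and untreated wild type. Between the tissues Pi16 and Dpt were gained for the trap effect and Pdgfrb for the level. The count of called genes moved by over 1.5 times in 6 comparisons. For the trap in mutant muscle it was 4, and 2 with a fit of the compared groups only. For mutants against wild type in treated muscle it was 2, 4 with array weights or a fit of these groups only, and 1 with median centring. With the replicate number as a block it was 1 there, since Dpt was lost (adjusted p = 0.0609). With the replicate block Pi16 was also called for the interaction in muscle (adjusted p = 0.0309) and Rgs5 for genotype in treated kidney (adjusted p = 0.0403), and no other call changed in these fits. For treated mutants against untreated wild type in muscle the count was 1, and 2 with the mean of probe sets or genes above the median level, 3 with quantile normalization, a trended prior or these groups only, and 4 with array weights. For the trap effect in kidney minus muscle it was 1, and 2 with the mean of probe sets, 0 with array weights, 0 without the animal as a replicate block and 0 with it as a fixed replicate block. Leaving out each array in turn gave 2 to 5 for the trap in mutant muscle and 0 to 1 for genotype in treated muscle. It gave 0 to 3 for the interaction in muscle (2 with all arrays) and 0 to 1 for treated mutants against untreated wild-type muscle. Leaving out each animal, with both of its arrays, gave 0 to 1 for the trap effect between tissues. For the level in untreated wild type this gave 4 to 6 (7 with all arrays). The cause of these changes was not tested. With 3 or 4 arrays a group, calls near the threshold depended on single arrays.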

Other observations

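Among the markers of other cells, the tendon genes Kera and Tnmd had the widest gaps of their list in muscle and are named after their values were seen. Tnmd, which encodes tenomodulin, averaged 6.66 ± 0.55 in mutant muscle and 10.54 ± 0.12 in wild-type muscle under PBS (SD, n = 4 and 3), a change of -3.88 ± 0.26. Kera, which encodes the proteoglycan keratocan, averaged 4.85 ± 0.64 in mutant muscle and 9.41 ± 0.13 in wild-type muscle under PBS, a change of -4.56 ± 0.27. Its level in untreated mutants lay below 5.20, the median of tubule genes in muscle, so changes measured against that group may be understated. With the trap in mutants Kera rose by 2.09 ± 0.25 and Tnmd by 1.86 ± 0.24. The interaction of genotype and trap was 3.01 ± 0.36 for Kera (adjusted p = 0.00215) and 2.56 ± 0.36 for Tnmd (adjusted p = 0.00465), both called, as were those of Thy1 and Dpt. In wild-type muscle none of the 5 tendon genes was called for the trap with limma, against 0.0619% of all genes. Their median there was -0.64, while Thy1 was at -0.07 and Dpt at -0.01.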
